A study of Homo sapiens with 12 samples.

Results

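The 10 cytokine genes described here are 5 CXC chemokines (CXCL1, CXCL2, CXCL3, CXCL5 and CXCL8), 2 CC chemokines (CCL2 and CCL20), the interleukin 1 genes IL1A and IL1B, and CSF2, which encodes the growth factor GM-CSF. They were picked by gene symbol from the 26485 genes of the count files, with their counts across the 4 treatments already known, so that their changes between treatments are given as a description. Cells of OVCAR8, an ovarian carcinoma line of human origin, were exposed for 7 h to vehicle (control), to 150 nM EC359, to 100 nM trametinib, or to both agents at the same doses (combination). EC359 is a small molecule that inhibits the leukemia inhibitory factor receptor (LIFR), and trametinib inhibits MEK, the kinase above ERK. Each condition had 3 libraries, 12 in all. The labels do not say whether the 3 libraries came from separate cultures, so that the errors given here measure the spread between libraries, which may be technical. All libraries came from 1 cell line in culture, without the leukocytes on which most of these cytokines act. The comparisons address how each inhibitor alone, and the addition of the second inhibitor, shifted the transcripts of this cytokine group.

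Chemokines are small secreted proteins that guide migrating cells through G protein-coupled receptors. The CXC members of this group carry the Glu-Leu-Arg (ELR) motif, bind CXCR2 (CXCL8 also binds CXCR1) and attract neutrophils, and they are known as promoters of angiogenesis. CCL2 attracts monocytes through CCR2, CCL20 attracts CCR6-bearing lymphocytes and dendritic cells, IL-1 alpha and IL-1 beta act through IL1R1 with its partner IL1RAP, and GM-CSF supports myeloid cells. Transcription of most of these genes is known to respond to NF-kappaB and AP-1, and their short-lived transcripts carry AU-rich elements in the 3′ UTR. In ovarian cancer, CXCL8 and CXCL1 are among the cytokines that tumor cells themselves release.

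The 5 CXC genes share a cluster on chromosome 4. The sequences just upstream of their starts are shown because CXCL5 changed far less than the other 4 while holding the same short element. For each gene the 150 bases before the RefSeq start are given 5′ to 3′ on the strand of the gene (RefSeq, GRCh38.p14). Capitals mark matches to the NF-kappaB consensus, to the 9 bases GGAATTTCC, which lie inside the consensus match where both occur, and to the AP-1 motif TGANTCA. CXCL1 lies at chr4:73869243-73869392 (plus strand), CXCL2 at chr4:74099196-74099345 (minus), CXCL3 at chr4:74038690-74038839 (minus), CXCL5 at chr4:73998678-73998827 (minus) and CXCL8 at chr4:73740419-73740568 (plus). CCL20 and IL1B, on chromosome 2, are added as genes outside the cluster with different responses, at chr2:227813692-227813841 (plus) and chr2:112836780-112836929 (minus).
CXCL1: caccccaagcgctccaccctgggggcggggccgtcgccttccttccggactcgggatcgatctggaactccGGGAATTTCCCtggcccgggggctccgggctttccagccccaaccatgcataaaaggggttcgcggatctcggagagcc
CXCL2: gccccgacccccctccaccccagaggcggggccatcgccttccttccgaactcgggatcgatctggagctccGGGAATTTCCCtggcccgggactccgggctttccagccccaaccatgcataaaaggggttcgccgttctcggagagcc
CXCL3: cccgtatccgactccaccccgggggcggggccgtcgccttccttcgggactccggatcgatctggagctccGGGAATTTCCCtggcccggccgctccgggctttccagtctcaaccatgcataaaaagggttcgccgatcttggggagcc
CXCL5: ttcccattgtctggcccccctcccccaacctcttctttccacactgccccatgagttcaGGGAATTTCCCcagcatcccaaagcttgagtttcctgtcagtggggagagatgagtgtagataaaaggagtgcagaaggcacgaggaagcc
CXCL8: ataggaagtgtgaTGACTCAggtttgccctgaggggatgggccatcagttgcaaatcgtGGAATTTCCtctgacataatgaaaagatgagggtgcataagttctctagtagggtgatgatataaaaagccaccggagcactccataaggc
CCL20: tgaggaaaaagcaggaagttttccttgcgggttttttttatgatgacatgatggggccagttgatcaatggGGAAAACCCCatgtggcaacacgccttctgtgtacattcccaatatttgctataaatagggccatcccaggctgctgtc
IL1B: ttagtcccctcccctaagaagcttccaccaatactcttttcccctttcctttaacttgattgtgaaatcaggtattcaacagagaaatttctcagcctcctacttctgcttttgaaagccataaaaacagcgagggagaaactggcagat
RefSeq windows of 300 bases (250 before to 50 after the start) were at hand for 9 of the 10 genes, all but CCL2. The 9 bases GGAATTTCC, searched on both strands, stood in CXCL1, CXCL2, CXCL3, CXCL5 and CXCL8 and in 0.56% of the 27305 genes with a window. This element was singled out after the sequences had been seen. The windows of CXCL1, CXCL2 and CXCL3 are 69.8% to 82.5% identical to each other, so their matches are not independent. The NF-kappaB consensus was found in CXCL1, CXCL2, CXCL3, CXCL5 and CCL20, and in 13.3% of all genes. TGANTCA on either strand was found in CXCL8 and IL1A and in 9.37% of genes, while the cyclic AMP response element TGACGTCA was in none of the 9 windows and in 2.25% of genes. For IL1A, RefSeq gives 2 windows, whose starts lie 901 and 994 bases from the start in the count files. TGANTCA was in both of them. TATAAA, searched on the strand of the gene only, was found in CXCL8, CCL20 and 1 of the 2 IL1A windows (8.99% of genes). TTCNNNGAA, the core of STAT sites, was found on either strand in CXCL5, IL1B and CSF2 (9.38% of genes). In CXCL5 this last match overlapped the capitals above. CXCL5 thus held the same 9 bases as the other 4 genes of the cluster, although its transcript changed far less. A match describes the letters in the window and does not show binding.

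Totals were 24790392 to 32467283 counts per library, and levels are in CPM (each library scaled to the same size by TMM), where 3 counts, the upper limit for a count of 0, equal 0.0883 to 0.127 CPM. Of the 10 genes, 8 passed edgeR's filter on low counts and 2 did not. CCL2 (chromosome 17, 34255277 to 34257201 in hg38) had 0 counts in each of the 12 libraries. CSF2 (chromosome 5, 132073792 to 132076170) was counted in the 3 EC359 libraries only and fell short of the filter. Of 8 epithelial and ovarian markers, 6 were expressed, with a sum of 3582 to 4097 CPM, whereas MUC16 and ESR1 had at most 1 count in a library. Of 10 leukocyte markers, 3 (PTPRC, TYROBP and CD3E) were at 0 in all libraries, 1 (ITGAM) passed the filter, and their sum was 1.18 to 2.25 CPM with ranges that overlapped between all conditions. The 3 endothelial markers summed to 0.113 to 0.589 CPM. Of 4 fibroblast markers 2 were expressed (COL1A1 and LUM), and their sum was 415.5 to 436.2 CPM in control libraries, 219.8 to 232.5 under EC359, 514.4 to 525.9 under trametinib and 314.5 to 336 under both. That sum was almost wholly COL1A1 (427 CPM on average in control). LUM averaged 0.568 to 0.935 CPM, COL1A2 had 3 counts over all libraries and DCN had 0. COL1A1 moved opposite to most of the CXC genes, and its part in the results was not tested. In such bulk RNA, fewer cells that express a gene and less transcript per cell cannot be told apart.

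The ELR chemokines CXCL8, CXCL2, CXCL3 and CXCL1 were far higher with EC359 than in control, and adding trametinib lowered all 4 without returning them to the control level. CXCL8 (chromosome 4, 73740506 to 73743716), encoding the neutrophil attractant IL-8, had 3.43, 3.90 and 3.50 CPM in the control libraries and 276, 301 and 283 CPM with EC359. Trametinib libraries had 1.47, 1.18 and 1.46 CPM, and combination libraries 103, 107 and 106 CPM. No library of any condition overlapped with another condition, and the order was EC359, combination, control, trametinib. The log2 fold change against control was 6.31 ± 0.05 (standard error) with EC359, a 79.2-fold difference and the second highest of the 14865 genes tested. It was -1.39 ± 0.14 with trametinib and 4.86 ± 0.06 with the combination.

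CXCL2 (chromosome 4, 74097037 to 74099280), which like CXCL1 and CXCL3 was first known as a GRO protein, had 6.03, 6.31 and 5.86 CPM in control and 289.9, 296 and 294 CPM with EC359. Its trametinib libraries had 3.59, 4.60 and 4.19 CPM, and its combination libraries 118, 126 and 127 CPM. The 4 conditions were again fully apart, in the same order as for CXCL8. The log2 fold changes against control were 5.59 ± 0.05 with EC359 (48.3-fold), -0.57 ± 0.09 with trametinib and 4.35 ± 0.05 with the combination. The trametinib value did not reach a 2-fold change.

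CXCL3 (chromosome 4, 74036591 to 74038773) was the least expressed of the GRO genes, with 0.536, 0.729 and 0.647 CPM in control. EC359 libraries had 21.8, 24.1 and 22.8 CPM and combination libraries 7.98, 9.20 and 9.24 CPM. With trametinib it had 1.09, 0.874 and 0.779 CPM, all above control, which made it the one member tested whose trametinib libraries were higher than control. This difference rested on 15 to 23 counts per control library against 23 to 35, and its log2 value of 0.52 ± 0.24 stayed under 2-fold. The log2 fold changes were 5.15 ± 0.14 with EC359 (35.5-fold) and 3.77 ± 0.14 with the combination.

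CXCL1 (chromosome 4, 73869392 to 73871302) had 6.18, 5.86 and 6.71 CPM in control and 131, 127 and 127 CPM with EC359. With trametinib the values were 3.46, 2.20 and 2.60 CPM, and with the combination 24.8, 26.9 and 27.3 CPM. Trametinib thus took away a larger share of CXCL1 than of the other 3 genes, the combination standing at 20.5% of the EC359 level against 42.1% for CXCL2, 38.5% for CXCL3 and 36.8% for CXCL8. The log2 fold changes against control were 4.36 ± 0.06 with EC359 (20.5-fold), -1.17 ± 0.11 with trametinib and 2.07 ± 0.07 with the combination. Added up, CXCL1, CXCL2, CXCL3 and CXCL8 took 16.6 ± 0.341 CPM in control libraries (SD, n = 3 in each condition). With EC359 they took 731 ± 15.3 CPM, of which 264 ± 8.69 CPM remained in the combination, and with trametinib 9.16 ± 0.400 CPM.

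The coding sequences of CXCL1, CXCL2 and CXCL3 are 90.7% to 94.4% identical (GENCODE 29), so that reads could be shared between them. No stretch of 100 bases, the read length, was common to the transcripts of any pair among the 5 CXC genes. Values that were not whole, the mark of reads divided among several places, occurred in 6 of 12 libraries for CXCL2, 1 for CXCL1 and 0 for CXCL3. With the 3 genes summed, the log2 fold changes against control were 5.10 ± 0.04 under EC359, -0.73 ± 0.07 under trametinib and 3.61 ± 0.04 with the combination, so their joint change did not depend on how reads were split.

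CXCL5 (chromosome 4, 73995642 to 73998729), the remaining ELR gene, moved little. It had 17.7, 15.8 and 16.9 CPM in control, 20.7, 22.6 and 23.2 with EC359, 11.8, 10.7 and 10.7 with trametinib, and the combination had 14.0, 13.5 and 12.7. The conditions did not overlap, yet no fitted comparison reached 2-fold. Its log2 fold changes were 0.40 ± 0.07 under EC359, -0.60 ± 0.07 under trametinib and -0.32 ± 0.07 with the combination. Unlike its 4 neighbors, it stood below control in the combination.

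**Figure D1:**
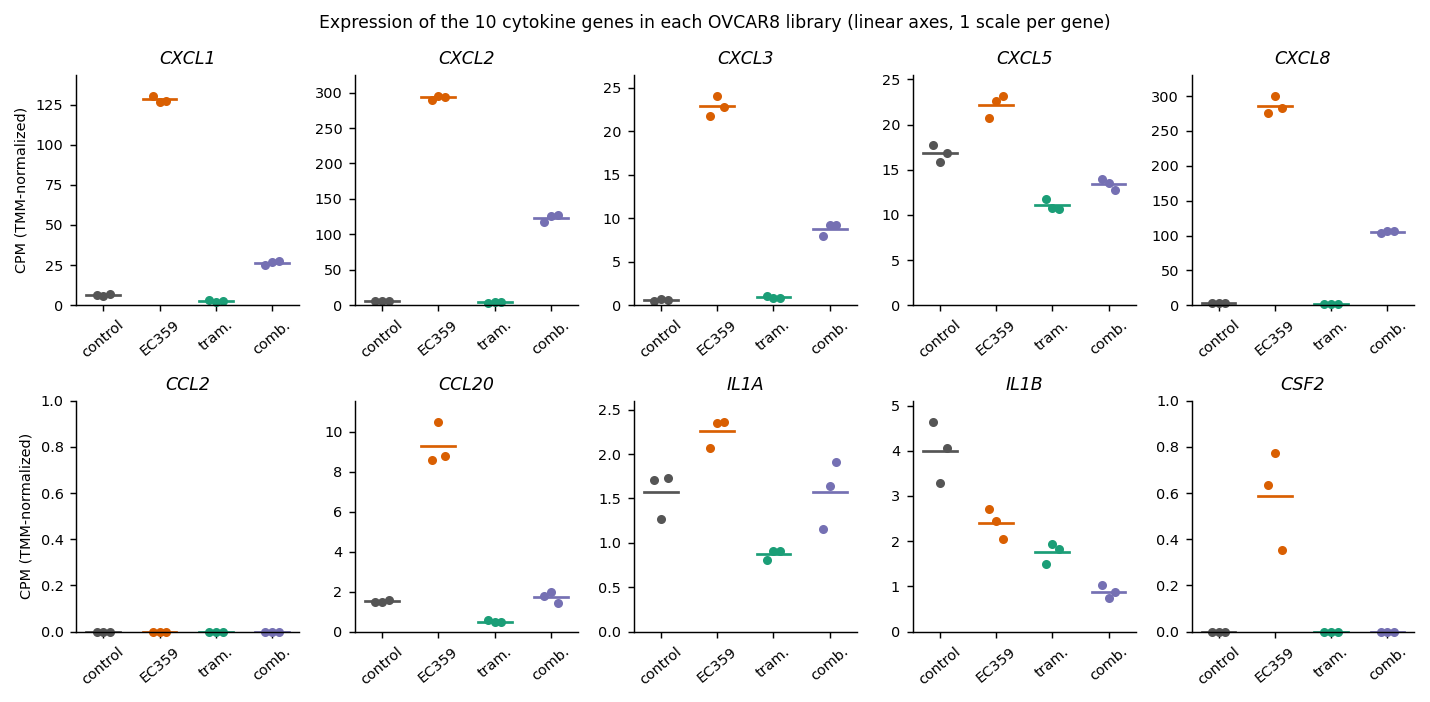
CPM of the 10 cytokine genes in each of the 12 libraries, with 1 linear scale per gene, a point per library and a bar at the mean of 3 libraries (tram., trametinib; comb., combination). EC359 libraries are highest in every gene with counts except IL1B, and the combination falls between EC359 and control for CXCL1, CXCL2, CXCL3 and CXCL8, close to control for CCL20 and IL1A, and below control for CXCL5 and IL1B.

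Among the CC chemokines, CCL20 (chromosome 2, 227813842 to 227817564), the ligand of CCR6, was higher with EC359 and back at the control level in the combination. Control libraries had 1.46, 1.49 and 1.59 CPM and EC359 libraries 8.58, 10.5 and 8.79 CPM. Trametinib libraries had 0.562, 0.456 and 0.487 CPM, and combination libraries 1.80, 1.97 and 1.43 CPM. Combination and control overlapped, whereas EC359 was above and trametinib below them. The log2 fold change was 2.61 ± 0.16 with EC359 (6.12-fold), -1.58 ± 0.21 with trametinib and 0.19 ± 0.18 with the combination. CCL2, the monocyte attractant, allowed no comparison at 0 counts throughout, and its neighbors CCL7 and CCL8 also had none.

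The interleukin 1 genes differed from each other. IL1B (chromosome 2, 112829760 to 112836779), whose precursor is cleaved by caspase-1 to the secreted cytokine, was lower under all 3 treatments. It had 4.64, 3.30 and 4.06 CPM in control, 2.70, 2.45 and 2.05 with EC359, 1.498, 1.94 and 1.82 with trametinib, and the combination had 1.04, 0.745 and 0.864. No libraries overlapped between conditions, with the combination lowest. The log2 fold changes were -0.73 ± 0.18 under EC359, -1.19 ± 0.18 under trametinib and -2.18 ± 0.20 with the combination, and only the EC359 value was under 2-fold. IL1B was the 1 member tested whose EC359 libraries were all below control.

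IL1A (chromosome 2, 112773915 to 112785394), encoding IL-1 alpha, which is active without cleavage, was expressed near 1 to 2 CPM. It had 1.71, 1.27 and 1.74 CPM in control, 2.07, 2.35 and 2.36 with EC359, 0.811, 0.912 and 0.908 with trametinib, and the combination had 1.16, 1.64 and 1.92. EC359 libraries were above and trametinib libraries below control, while the combination overlapped control. The log2 fold changes were 0.53 ± 0.21, -0.84 ± 0.23 and 0.00 ± 0.22. The sign of the last value turned with scaling and with single libraries, being -0.16 without combination library 3 and -0.14 with scaling by total counts only.

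CSF2 was counted in EC359 libraries alone, with 15, 23 and 9 counts (0.634, 0.772 and 0.355 CPM) and 0 in the other 9 libraries. Setting a floor of 3 counts over each group of 3 libraries, it was at least 18.6-fold higher with EC359 than in control, at least 17.7-fold higher than with trametinib and at least 15.6-fold higher than with the combination. The combination libraries thus held no count of a gene that EC359 alone brought above the limit of a zero count in each library.

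Set per kilobase of exon, which allows levels of different genes to be compared, the order of the group changed with EC359. In control it ran from CXCL5 (6.76 ± 0.381 CPM per kb) over CXCL1 (5.24 ± 0.359) and CXCL2 (5.04 ± 0.189), IL1B (2.67 ± 0.450), CXCL8 (2.12 ± 0.149) and CCL20 (1.80 ± 0.0786) to CXCL3 (0.551 ± 0.084) and IL1A (0.537 ± 0.0902; SD, n = 3 each). Libraries overlapped between CXCL1 and CXCL2, between IL1B and CXCL8, and between CXCL3 and IL1A. With EC359 the top was CXCL2 (244 ± 2.52 CPM per kb), CXCL8 (168 ± 7.66) and CXCL1 (108 ± 1.72), followed by CXCL3 (19.8 ± 1.01), CCL20 (11.03 ± 1.26), CXCL5 (8.91 ± 0.513) and IL1B (1.60 ± 0.220). IL1A (0.772 ± 0.0566) and CSF2 (0.748 ± 0.271) came last and overlapped. CXCL5 thus went from the top of the order to a place below CCL20, although its own level was no lower. The combination kept the EC359 order for the first 4 genes, at 103, 61.8, 22.1 and 7.61 CPM per kb, with CXCL5 (5.39) now above CCL20 (2.06). With trametinib CXCL5 (4.45 CPM per kb) was again first, before CXCL2 (3.43) and CXCL1 (2.31), and only CXCL8 (0.802) and CXCL3 (0.791) overlapped.

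For the members that passed the filter, the calls stood as follows, a call being a Benjamini-Hochberg adjusted p under 0.05 in edgeR's quasi-likelihood fit and a change of at least 2-fold. With EC359, 5 of 8 were called higher (CXCL1, CXCL2, CXCL3, CXCL8 and CCL20), where 6.98% of all genes tested were called, 4.19% higher and 2.79% lower. With trametinib, 4 of 8 were called lower (CXCL1, CXCL8, CCL20 and IL1B), against 0.955% of all genes lower and 0.478% higher. With the combination, 4 were called higher (CXCL1, CXCL2, CXCL3 and CXCL8) and 1 lower (IL1B), against 13.1% of all genes called, 7.27% higher and 5.87% lower. Since the members were picked with these contrasts known, the counts describe them and support nothing. The median log2 fold change of the 8 members was 3.48 for EC359, -1.003 for trametinib and 1.13 for both, while that of all 14865 genes lay between -0.01 and 0.00.

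The 3 comparisons share the control libraries. By library overlap, 7 of 8 members lay wholly above control with EC359 and 1 below, 1 above and 7 below with trametinib, and 4 above and 2 below with the combination. Among all genes, 32.4% lay wholly above and 32.3% below with EC359, 19.7% and 20.4% with trametinib, and 36% and 35.8% with the combination. When libraries were scaled by total counts only, the median of all genes shifted to -0.15 (log2) with EC359 and -0.14 with the combination. The calls over all genes then went from 623 higher and 415 lower to 475 and 589 with EC359, and from 1081 and 872 to 872 and 1194 with the combination. No call of a member against control changed under that scaling.

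**Figure D2:**
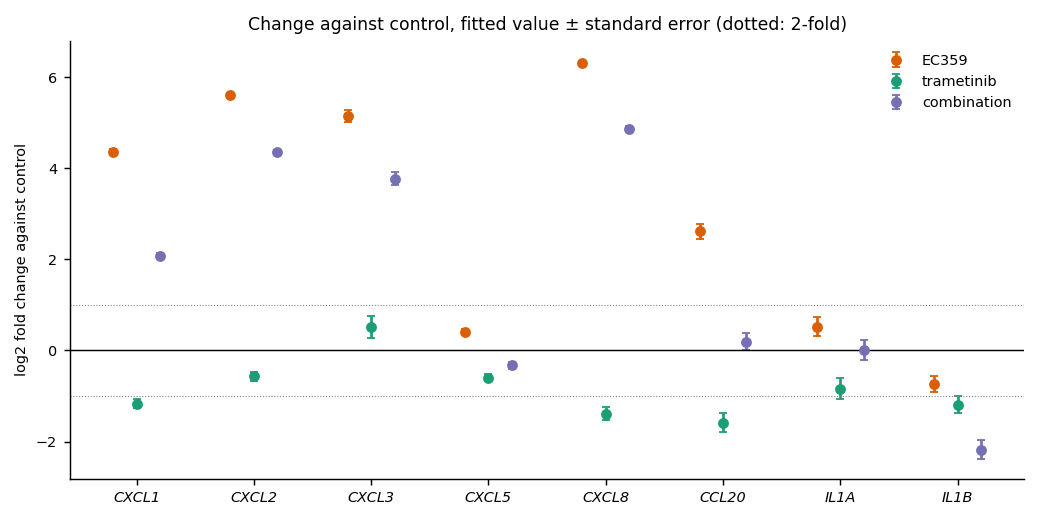
Fitted log2 fold change against control (y axis) of the 8 members that passed the filter, for EC359, trametinib and the combination, with bars of 1 standard error and dotted lines at 2-fold. CXCL8, CXCL2, CXCL3 and CXCL1 have EC359 values from 4.36 to 6.31 and combination values from 2.07 to 4.86, while CXCL5, IL1A and IL1B stay within 1 with EC359.

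Adding trametinib to EC359 gave lower values for all members with enough counts to be tested, past the threshold for 6 of 8. Compared to EC359 alone, all 8 members tested were lower in every combination library, where 27% of all genes were so placed, and those called lower were 6 (CXCL1, CXCL2, CXCL3, CXCL8, CCL20 and IL1B), where 1.55% of all genes were and 1.69% were called higher. The log2 difference was largest for CCL20 (-2.42 ± 0.16) and CXCL1 (-2.28 ± 0.05), and lay at -1.44 ± 0.03 for CXCL8, -1.44 ± 0.21 for IL1B, -1.38 ± 0.10 for CXCL3 and -1.25 ± 0.03 for CXCL2. CXCL5 (-0.73 ± 0.07) and IL1A (-0.52 ± 0.22) did not reach 2-fold. The median of the 8 members was -1.41, and that of all genes 0.00.

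Seen from the other side, adding EC359 to trametinib raised 5 of the 8 past the threshold and lowered none past it, where 6.12% of all genes were called higher and 5.48% lower. In library overlap 7 members were wholly above trametinib (36% of all genes) and IL1B was below it (34.3%). These were CXCL8 with a log2 fold change of 6.25, CXCL2 with 4.91, CXCL3 with 3.26, CXCL1 with 3.24 and CCL20 with 1.77. CXCL8 thus differed by 76.2-fold between combination and trametinib, and by 79.2-fold between EC359 and control. IL1B had a log2 value of -0.98 here, at the edge of the 2-fold threshold, and passed it without combination library 1 (-1.11), without trametinib library 1 (-1.09) or with scaling by total counts (-1.15). IL1A, at 0.84, passed it without combination library 1 (1.02). Scaling by total counts also turned the balance of all calls in this comparison, from 909 higher and 814 lower to 714 and 1136.

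The effect of trametinib without EC359 (against control) and with EC359 (combination against EC359) could be set side by side for each member. For CXCL8 the levels fell to 37.9% of control and to 36.8% of EC359, so that the interaction, the difference of both log2 effects, was -0.06 ± 0.16. For IL1B they stood at 43.8% and 36.7% and for CXCL5 at 65.9% and 60.5%, with interactions of -0.25 ± 0.28 and -0.13 ± 0.10. IL1A, at 55.8% and 69.5%, had the only positive value, 0.32 ± 0.32. The 3 GRO genes and CCL20 were lowered more with EC359 present. CXCL1 stood at 44.1% of control and 20.5% of EC359 (interaction -1.12 ± 0.13), CXCL2 at 68.0% and 42.1% (-0.68 ± 0.10), CXCL3 at 144% and 38.5% (-1.89 ± 0.22) and CCL20 at 33.1% and 18.7% (-0.84 ± 0.28). These 4 passed an adjusted p of 0.05 with no minimum fold change, where 30.3% of all genes did and 15.9% did downward. CCL20 no longer passed without combination library 3 (-0.72), without EC359 library 2 (-0.74) or without trametinib library 1 (-0.75). Interactions of CXCL8 and of the GRO genes were not compared with each other by a test.

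**Figure D3:**
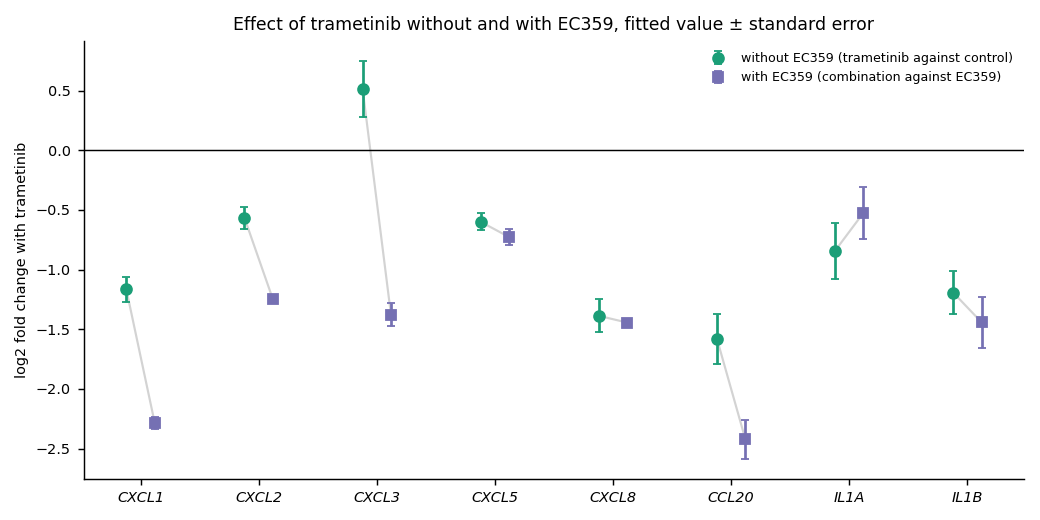
Log2 fold change with trametinib (y axis) for the 8 members that passed the filter, without EC359 (circles, trametinib against control) and with EC359 (squares, combination against EC359), with bars of 1 standard error and a line joining both values of a gene. For CXCL8 the values are -1.39 and -1.44, whereas for CXCL1 they are -1.17 and -2.28 and for CXCL3 0.52 and -1.38.

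Of the receptors of these cytokines, those of the chemokines were at or near 0 in OVCAR8, while chains of the IL-1 and GM-CSF receptors were counted. CXCR1 and CCR2 had 0 counts in all 12 libraries, CXCR2 had 1 count in 1 library, and CCR6 had 4 counts in total. IL1R1, the signaling receptor of both IL-1 cytokines, was expressed at 5.10 ± 0.132 CPM in control and 3.31 ± 0.418 CPM with the combination, a log2 value of -0.62 ± 0.14 that stayed under 2-fold. Its partner IL1RAP rose from 9.001 ± 0.879 CPM to 20.9 ± 0.893 CPM with the combination, by 1.21 ± 0.08 (adjusted p = 2.1e-20, edgeR quasi-likelihood, Benjamini-Hochberg). IL1RAP was already at 16.2 ± 1.07 CPM with EC359 alone (0.85 ± 0.08) and at 5.92 ± 0.0587 CPM with trametinib (-0.61 ± 0.09), both under 2-fold. The decoy receptor IL1R2 stayed at 0.382 to 0.620 CPM on average and was called in no comparison. The GM-CSF receptor alpha chain CSF2RA was at 8.48 to 10.5 CPM and was likewise never called, whereas the common beta chain CSF2RB, at 0.205 to 0.560 CPM, had at most 20 counts in a library. CSF2RB was called higher with trametinib (1.12 ± 0.44, adjusted p = 0.049 by the same test), a call that was lost in several alternative fits.

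Of 23 chemokine receptors listed, 4 were tested and 11 had no count in any library. CXCR4, the CXCL12 receptor, rose from 6.61 ± 0.647 CPM to 17.9 ± 0.774 with EC359 (log2 1.44 ± 0.08, adjusted p = 2.4e-22 by edgeR's quasi-likelihood fit, Benjamini-Hochberg) and stood at 17.3 ± 0.653 with the combination. Trametinib did not lower CXCR4 alone (-0.14 ± 0.09) or beside EC359 (-0.06 ± 0.08) past the threshold. CCRL2, a receptor that binds chemerin without signaling, had at most 14 counts in a library. Of the 41 other chemokine ligands, 22 were at 0 throughout and 3 were tested (CXCL16, CCL26 and CCL28). CCL26, an eosinophil attractant, was called higher with the combination at 0.596 ± 0.104 CPM against 0.105 ± 0.0388 in control (log2 2.44 ± 0.56), on at most 18 counts per library. CCL28 was at 5.45 to 6.67 CPM in all conditions. With EC359, 0 of these 3 tested ligands were called by edgeR or DESeq2, and 0 had an unadjusted p under 0.05.

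Among 30 genes of the IL-1 family and its signaling, 19 were tested. With EC359, 1 was called, higher (5.26% of those tested, against 6.98% of all genes called in either direction). With the combination, 2 were called higher and 1 lower (15.8% of those tested, against 13.1% of all genes). Both shares were near those of all genes. With trametinib 0 were called by edgeR or DESeq2, although 8 were lower at an unadjusted p under 0.05. IRAK2, a kinase-like adaptor of the IL-1 receptor, went from 5.39 ± 0.409 CPM in control to 27.6 ± 1.64 with EC359 (log2 2.36 ± 0.09), 2.86 ± 0.258 with trametinib and 10.5 ± 0.456 under both. It had the same order of conditions as CXCL8. NLRP3, the inflammasome sensor upstream of IL-1 beta cleavage, fell from 9.97 ± 0.0851 CPM to 3.93 ± 0.485 with the combination (-1.34 ± 0.11), with 7.55 ± 0.479 for EC359 and 5.02 ± 0.157 for trametinib, the order seen for IL1B. IL18BP, which neutralizes IL-18, rose with the combination (1.30 ± 0.13) and stayed under 2-fold with EC359 (0.72 ± 0.13). IL18 itself was at 135 ± 3.16 CPM in control and 221 ± 5.38 with EC359, under 2-fold (0.71 ± 0.03), and IRAK3, an inhibitor of IL-1 signaling, had a value of -0.76 ± 0.08 with the combination. The receptor antagonist IL1RN had no counts.

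Of 10 genes of the CSF family, 3 were tested. CSF1, the macrophage growth factor, rose from 9.97 ± 0.356 CPM to 35.6 ± 0.882 with EC359 (1.84 ± 0.06) and was at 7.62 ± 0.164 with trametinib and 24.2 ± 0.820 with the combination. CSF3, which encodes G-CSF and is often released together with GM-CSF, had 35 counts in all 12 libraries and was not tested. Like CSF2 it was highest with EC359, at 0.379 ± 0.160 CPM. It averaged 0.0498 CPM in control, 0 with trametinib and 0.0125 with the combination.

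NF-kappaB factors and their inhibitors were called with EC359 in larger number than any other list. Of 22 listed 21 were tested, and 10 were called with EC359, all of them higher (47.6% of those tested, against 4.19% of all genes). With the combination 6 were called, also higher (28.6% of those tested, against 7.27% of all genes). With trametinib 0 were called by edgeR or DESeq2, while 14 had an unadjusted p under 0.05, 4 of them higher and 10 lower. The list's median log2 fold change with EC359 was 0.90. TNFAIP3, a deubiquitinase that shuts off NF-kappaB signaling, rose from 14.2 ± 0.561 CPM to 150.5 ± 5.28 with EC359 (3.40 ± 0.04) and to 97.8 ± 0.825 with the combination (2.78 ± 0.04). NFKBIZ, a nuclear cofactor of NF-kappaB known to be needed for part of its targets, rose by 2.85 ± 0.06 and 2.72 ± 0.06, and NFKBIA, the inhibitor IkappaB alpha, by 2.21 ± 0.03 and 2.03 ± 0.03. REL rose by 1.54 ± 0.07 and 1.86 ± 0.07 and NFKBID by 1.30 ± 0.15 and 1.55 ± 0.15. With the combination these 5 genes, named for the size of their changes, thus held most of their EC359 level or exceeded it. BIRC3 differed from them, with 14.2 ± 1.14 CPM in control, 39.6 ± 0.624 under EC359, 8.23 ± 0.798 under trametinib and 11.9 ± 1.04 under both. It rose with EC359 (1.48 ± 0.07) and fell against EC359 when trametinib was added (-1.74 ± 0.07, adjusted p = 6.3e-29 by edgeR's quasi-likelihood fit with Benjamini-Hochberg adjustment). Against EC359, 2 of the 21 were called lower in the combination (BIRC3 and NFKBIE), where 1.55% of all genes were. At an unadjusted p under 0.05 in the same fit, 15 of the 21 were lower in this comparison and 3 higher. TNFAIP3 was among the lower ones (-0.62 ± 0.03), and the list's median log2 value was -0.26. TNF had 64.8 counts over all libraries and was not tested.

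All 14 listed genes of proteins that bind AU-rich elements or degrade inflammatory transcripts were tested. Under EC359, 3 were called higher (21.4%, against 4.19% of all genes), and 3 with the combination (21.4%, against 7.27% of all genes). With trametinib 0 were called by edgeR or DESeq2, with 5 at an unadjusted p under 0.05. ZC3H12A (Regnase-1), an RNase that cleaves cytokine transcripts, rose from 5.57 ± 0.102 CPM to 51.3 ± 1.38 with EC359 (3.20 ± 0.07) and 44.6 ± 1.37 with the combination. ZFP36 (tristetraprolin), which directs AU-rich transcripts to decay, rose from 3.35 ± 0.354 CPM to 18.8 ± 1.32 and 18.4 ± 0.824. Its relative ZFP36L1 rose to 490.3 ± 11.9 CPM with EC359 (1.40 ± 0.03) and was at 319 ± 8.32 with the combination (0.78 ± 0.03), under 2-fold. RC3H1 (Roquin-1) was called with the combination (1.39 ± 0.06) and stayed under 2-fold with EC359 (0.87 ± 0.06), and the combination exceeded EC359 by 0.52 ± 0.05 (adjusted p = 4.8e-12 in the edgeR quasi-likelihood fit, Benjamini-Hochberg).

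**Figure D4:**
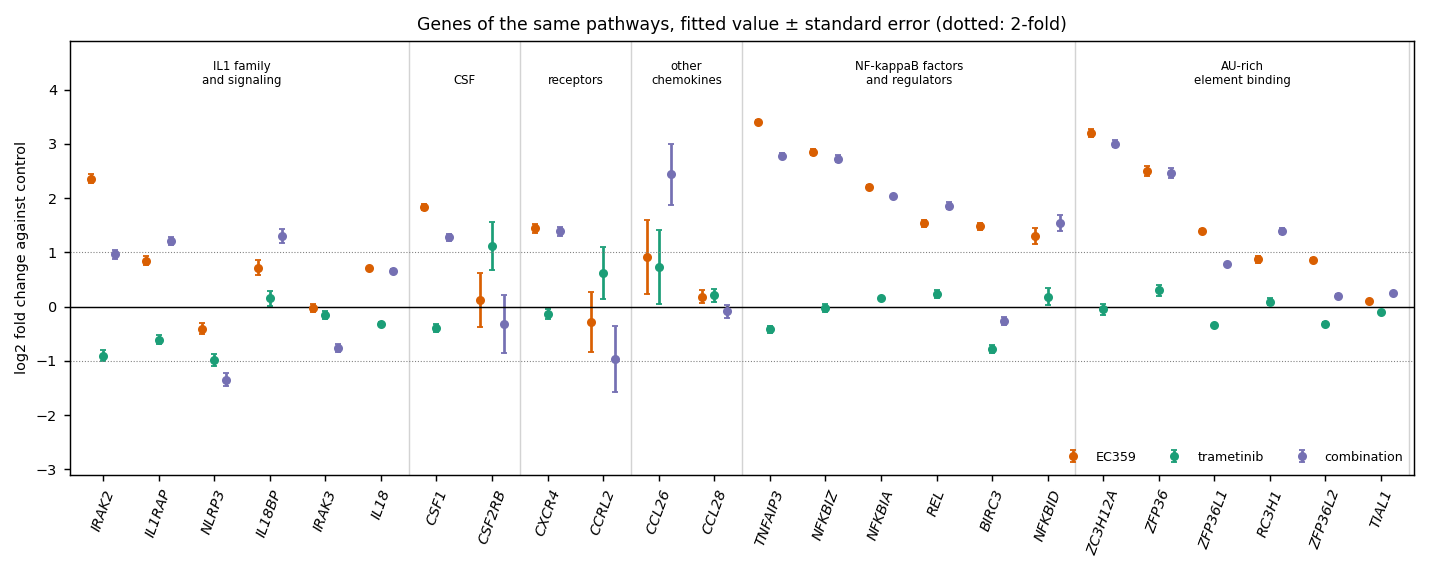
Fitted log2 fold change against control (y axis) of the named receptors, IL-1, CSF, NF-kappaB and AU-rich element binding genes for EC359, trametinib and the combination, with bars of 1 standard error and dotted lines at 2-fold. TNFAIP3, NFKBIZ, NFKBIA, ZC3H12A and ZFP36 keep values above 2 in the combination, while IRAK2 and BIRC3 drop to 0.96 and -0.26.

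The transcripts of the members were rich in the pentamer ATTTA of AU-rich elements. In the 3′ UTR of the transcript with the longest coding sequence (GENCODE 29), CSF2 held 8 copies (25.2 per kb), CXCL2 10 (13.9 per kb), CXCL3 7 (10.4 per kb), IL1B 6 (9.84 per kb), CXCL8 9 (7.19 per kb), CXCL1 5 (7.08 per kb) and CCL20 3 (6.65 per kb). CXCL5 held 11 (5.51 per kb), IL1A 5 (4.34 per kb) and CCL2 1 (2.66 per kb). The median of 17349 genes was 1 copy, or 1.55 per kb, so all 10 members lay above it per kb, as 32.5% of all genes did at or above the level of CCL2. The stricter 9-base form TTATTTATT was present in CXCL1, CXCL2, CXCL3, CXCL8, IL1B and CSF2 and in 7.79% of genes. IL1B carried both forms and was lower with EC359, while CXCL1, CXCL2, CXCL3, CXCL8 and CSF2, which also carried both, were higher. CCL20, CXCL5 and IL1A, without the 9-base form, were higher as well. Whether these letters bear on the changes was not tested.

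The genes in and around the chromosome 4 cluster differed in their changes. Within 500 kb of the 5 CXC genes lay 15 other genes, of which 4 passed the filter. The others had too few counts to be compared. The platelet chemokines PF4 and PPBP, inside the cluster, had 19 and 3 counts over all 12 libraries, PF4V1 had none, and CXCL6, the close paralog of CXCL5, had 29. MTHFD2L, next to CXCL2, stayed at 3.71 to 4.17 CPM and was called in no comparison. AREG, which encodes the EGF receptor ligand amphiregulin, rose from 0.534 CPM to 2.17 with EC359 (1.99 ± 0.25, adjusted p = 5.9e-10 by edgeR quasi-likelihood, Benjamini-Hochberg) and was at 4.31 CPM with the combination. Against EC359, AREG was higher in the combination (0.99 ± 0.21, adjusted p = 5.9e-05 in the same fit), just under 2-fold, where the 8 members were lower. AFP was called higher with the combination (1.12 ± 0.32), and ANKRD17 in no comparison of 2 conditions. Around IL1A, IL1B and CCL20 on chromosome 2, 17 of 29 neighbors were tested and the 1 called with EC359, LOC654841, was lower (-1.27 ± 0.43), while the IL36 and IL37 genes beside IL1B had at most 10 counts each over all libraries. Near CSF2 on chromosome 5, 10 of 17 were tested, and IRF1, an interferon response factor, was called higher with EC359 (1.24 ± 0.06). C5orf56, beside IRF1 and at 0.429 CPM or less on average, was called lower (-1.15 ± 0.52), while IL3 and IL5 had no counts.

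**Figure D5:**
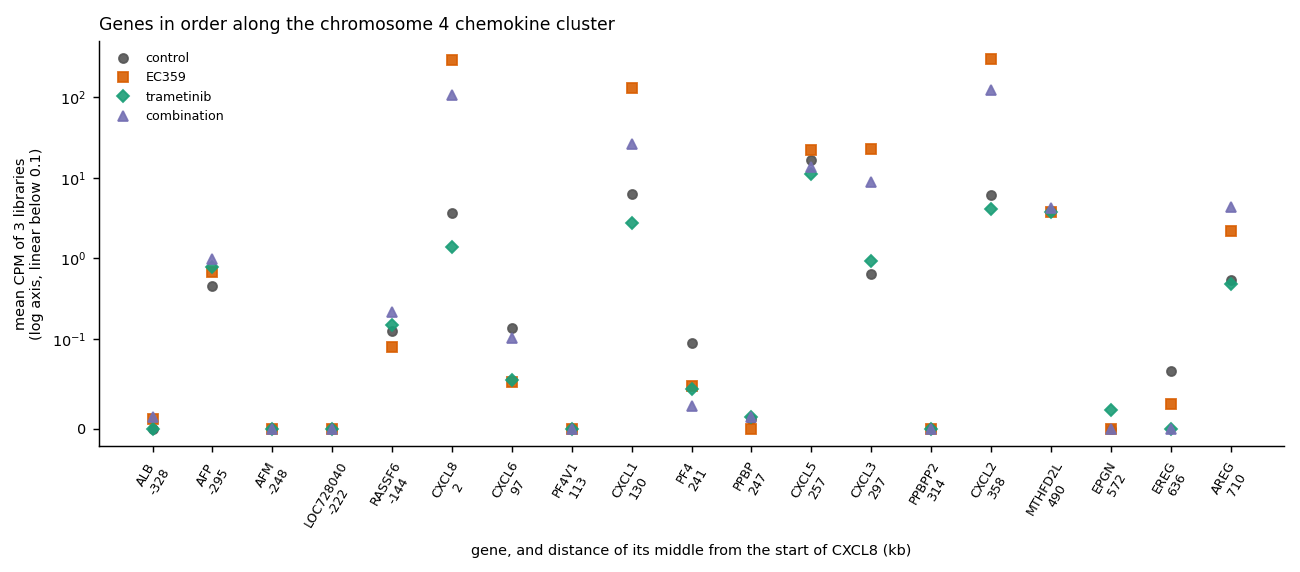
Mean CPM of 3 libraries per condition (y axis, logarithmic and linear below 0.1) for the genes around the chromosome 4 chemokine cluster, placed in genome order and labelled with the distance in kb of their middle from the start of CXCL8. CXCL8, CXCL1, CXCL3 and CXCL2 spread over more than a factor of 10 between conditions, while CXCL5 stays between 11.1 and 22.2 CPM, MTHFD2L between 3.71 and 4.17, and PF4, PPBP and PF4V1 stay near 0.

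Genes whose pattern was most like the mean standardized log2 CPM of the 8 tested members were sought over the 12 libraries, among 9843 genes with at least 10 CPM in their highest condition. The libraries fall into 4 conditions, so the coefficients mostly reflect 4 levels. The mean mixes unlike patterns, since IL1B correlated at -0.14 to -0.43 with CXCL1, CXCL2, CXCL3 and CXCL8. In that mean the combination (0.02 to 0.11) lay near control (-0.34 to -0.14). Genes like the mean therefore need not resemble those 4 chemokines, whose combination values lay far above control. The highest Pearson coefficients were those of ITPRIP (0.996), OSMR (0.995), TMEM185B (0.994), LRRC8C (0.991), ZNF697 (0.991), MAP4K4 (0.991), TLE3 (0.991) and E2F3 (0.990). None of these 8 remained among the top 8 by Spearman's coefficient, so the ranking depended on the measure. ITPRIP had 14.3 ± 0.443 CPM in control, 43.6 ± 2.17 under EC359, 7.39 ± 0.650 under trametinib and 18.3 ± 0.142 for both agents. OSMR, the oncostatin M receptor that pairs with the same gp130 subunit as LIFR, had 63.3 ± 1.67, 117 ± 2.52, 45.5 ± 2.08 and 75.1 ± 3.10 CPM in that order.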

How the data were processed

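Polyadenylated RNA of OVCAR8 cells was made into stranded libraries and read from both ends for 100 bp. Per the file headers, the authors counted read pairs per gene with featureCounts 1.5.0-p1 (minimum mapping quality 2, strand setting 2, exons of an hg38 annotation), dividing reads with several placements or overlapping genes into fractions. The deposited values are estimated counts (expected counts), 1 file per library, with no normalization. HISAT2 and bcl2fastq are named in the submitters' processing notes, with no version given there. Fractional values made up 12.4% to 15.1% of the genes of a library, and all values were rounded before testing.

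The members and all gene lists were chosen with earlier results of these data known, and the lists were written by hand. Analyses used R 4.3.3 and edgeR 4.0.16. filterByExpr (minimum count 10, minimum total 15) left 14865 of 26485 genes, and TMM factors lay between 0.947 and 1.06. A robust quasi-likelihood model with 4 conditions was fitted to all 12 libraries, with Benjamini-Hochberg adjustment over all genes tested. Calls required an adjusted p under 0.05 and a 2-fold change, and the interaction required no fold change. Standard errors came from the fitted change and its p. The limit of 3 counts for a zero covers counting error only. For members, differences are given without p-values.

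Named genes are the 10 members, receptors of a member, 8 genes of the most similar pattern, and genes within 500 kb. From each list, the genes called in any comparison were named as well. Where more than 6 were called, only the 6 with the largest change were named, among those with at least 1 CPM in their highest condition. Replicate numbers were checked for pairing by correlating deviations from the group means, which gave -0.066 to 0.027 over 18 pairs. Promoter windows are RefSeq sequences (GRCh38.p14), and identities were computed on these windows and on GENCODE 29 coding sequences with Biopython 1.88. RefSeq starts can differ from those of the files, by 0 to 85 bases for the genes shown and by 901 or 994 bases for the 2 windows of IL1A. The alternatives tried were DESeq2 1.42.0, scaling in edgeR by DESeq2 size factors or by totals, other filters, unrounded values, only the groups compared, a replicate block, no minimum fold change, the sum of CXCL1, CXCL2 and CXCL3, Spearman's coefficient, and each library left out in turn. The tests were first tested on simulated data. Protein, cell and animal measurements were not analysed here.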

Additional observations from a re-analysis of the deposited data

Results flagged for a closer look

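For 31 named genes the effect of trametinib differed with and without EC359, by the interaction term of edgeR's quasi-likelihood fit (Benjamini-Hochberg adjusted p under 0.05 over all genes, which 30.3% of the genes tested passed). A negative value means that trametinib lowered the gene more, or raised it less, when EC359 was present. Some genes were named because this same term passed (CCL28, IRAK3, IL18, ZFP36L2 and TIAL1), so their presence here was fixed beforehand. The count of 31 thus cannot be set against the 30.3%.

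Among the cytokines the interaction was -1.89 for CXCL3, -1.12 for CXCL1, -0.84 for CCL20 and -0.68 for CXCL2, all on the log2 scale. CXCL3 was the case in which trametinib libraries lay above control but combination libraries below EC359. Its difference between trametinib and control met neither part of a call. Of the NF-kappaB genes, BIRC3 had -0.95, NFKBIA -0.33 and TNFAIP3 -0.21. Among IL-1 genes, IRAK3 had -0.57, IRAK2 -0.49, IL18 0.27 and IL1RAP 0.97, so that IL1RAP was lowered by trametinib alone and not beside EC359. The chemokine CCL28 had -0.48. For the genes that bind AU-rich transcripts, the values were -0.34 for ZFP36L2, -0.28 for ZFP36L1, 0.25 for TIAL1 and 0.43 for RC3H1. NFKBIE, named in the text after its values were seen, had -0.36, and COL1A1, a fibroblast marker counted in these cells, 0.24.

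Of the genes within 500 kb of a member, 9 were among them. On chromosome 4 these were AREG with 1.18, the highest positive value of the 31, and ANKRD17 with -0.16. On chromosome 2 they were POLR1B (-0.62), CKAP2L (-0.57), PSD4 (-0.44), SLC20A1 (0.42), PAX8 (-0.14), AGFG1 (-0.14) and TTL (-0.10). Of the 8 genes with the pattern most like the members, 4 were among them, ZNF697 (-0.54), ITPRIP (-0.29), OSMR (-0.16) and MAP4K4 (-0.12).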

How the results depend on the processing

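The 8 tested members gave the same direction and the same side of the threshold under DESeq2, its size factors within edgeR, a filter of 10 counts in every library, unrounded values and only the groups compared. Without a minimum fold change, members called became 8 (from 5) with EC359, 7 (from 4) with trametinib and 8 (from 5) for the combination against trametinib. Listed genes called then became 44 (from 16) with EC359, 29 (from 1) with trametinib, 46 (from 15) with the combination, 40 (from 4) against EC359 and 47 (from 19) against trametinib. The single listed gene called with trametinib, CSF2RB, was lost (0) with 10 counts required in every library, DESeq2 or no filter, and the range with a library left out was 0 to 1, with 0 without control 1, control 3, trametinib 1 or trametinib 3.

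The near-zero log2 value of IL1A in the combination against control (0.0024) changed sign with no filter (-0.0010), total counts only (-0.14), and without combination 2 (-0.026), combination 3 (-0.16) or control 2 (-0.13), the range with a library left out being -0.16 to 0.18, each within its standard error of 0.22. Calls at the edge that turned when a library was left out are given with CCL20, IL1A and IL1B above. With the replicate number as a block, listed genes called with trametinib were 0 and IL1A against control was -0.0043, while no other call of a member changed. The numbers do not pair the libraries, since 0 of 18 correlations passed 0.1 and 0 of 12 libraries was closest to its own number. Without the filter CSF2 could be fitted, but a fold change against 0 depends on the prior count and is not given.

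At these depths, CCL2, CSF2 outside EC359, and the receptors CXCR1, CXCR2, CCR2 and CCR6 can be stated only as under the limit of 3 counts or near it. The values are of transcripts at 1 time point and 1 dose per agent in 1 cell line, and protein release was not measured in them.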
